A study of Mus musculus with 32 samples.

Results

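MPP3 and MPP1 are gates of mouse hematopoietic multipotent progenitors, and here they were compared within mice carrying 1 copy of the Cxcr4 1013 allele (+/1013). The comparison takes every library labelled MPP3 +/1013 (n = 3) against every library labelled MPP1 +/1013 (n = 3), which is 6 of the 32 libraries of the series, and covers all 18676 genes that passed the filter on low counts. All mice were C57BL/6. The series sorted MPP1, MPP2, MPP3 and MPP4 from the bone marrow of wild-type, +/1013 and 1013/1013 mice, with pools of 3000 cells per library, SMART-Seq v4 cDNA from 350 to 1000 pg of total RNA and Nextera XT libraries. CXCR4 is the receptor of the chemokine CXCL12, and the 1013 allele encodes it with a truncated C-terminus. The mice bear the allele in their germline, so both groups compared carry it. The labels give no age, sex or animal number, and do not say whether the 3 libraries of a group came from separate mice. What the p-values measure is thus the spread of the libraries, which may be technical. In such bulk samples, fewer cells of a type and less RNA per cell cannot be told apart.

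Multipotent progenitors have lost long-term self-renewal and still give rise to several blood lineages. MPP1 is the gate nearest to stem cells, MPP2 leans to megakaryocytes and erythroid cells, MPP3 to granulocytes and macrophages, and MPP4 to lymphoid cells. The gates are commonly drawn with antibodies to CD34, CD48, CD150 (Slamf1) and FLT3. The labels used here do not state the gates, so the levels of those genes are given as a check of the sort and not as findings.

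The 6 libraries held 14411262, 22909366 and 27719931 counts in MPP1 and 29894433, 33786917 and 31123878 in MPP3. Spearman correlations were 0.883 to 0.94 among the MPP1 libraries, 0.893 to 0.919 among the MPP3 libraries and 0.86 to 0.918 between the groups. A pair of libraries stood apart. Levels are counts scaled to library size with the TMM method (CPM). MPP3 +/1013 3 is 1 of 8 libraries of the series with at most 949 CPM of the immediate-early gene Fos: it had 73.12 CPM against 1381 to 7949 in the other 5 compared here. Its summed level of 8 neutrophil markers was 2820 CPM against 2.22 to 16.8 CPM, and hemoglobin genes took 0.135% of its counts against at most 0.00517%. It also had Ddx3y at 0 where the other 5 had 24.66 to 42.55 CPM, and 232.9 CPM of Xist where they had 52.24 to 124.6 CPM. MPP1 +/1013 1 was the shallowest and held immunoglobulin transcripts and Cd48 that the other MPP1 libraries had at low levels. Values without these libraries are given where they matter.

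Defining markers were checked against the sort labels. The summed level of 10 MPP3-like markers was 278 to 574 CPM in MPP1 and 2047 to 7453 CPM in MPP3, and that of 10 MPP1-like markers was 1612 to 2604 CPM in MPP1 and 944 to 1791 CPM in MPP3. The MPP3-like sums did not overlap and the MPP1-like sums did, between MPP1 replicate 1 and MPP3 replicate 1. The MPP3-like sum was 494 to 5164 CPM in MPP2 +/1013 and 3452 to 7162 CPM in MPP4 +/1013. It thus sets MPP3 apart from MPP1 and not from those gates. Cd48 had 225.7, 18.19 and 15.9 CPM in MPP1 replicates 1 to 3 and 465.8, 725.6 and 1109 CPM in MPP3. Slamf1 had 19.13, 31.87 and 42.39 CPM in MPP1 and 0, 0.03 and 3.15 CPM in MPP3. Both genes separated the groups without overlap, in the directions of the usual gates. Flt3, the receptor that marks MPP4, had 6.4, 23.16 and 22.04 CPM in MPP1 and 120, 159.1 and 102 CPM in MPP3, below the 317.1 to 631 CPM of MPP4 +/1013.

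Cxcr4, which carries the allele, did not separate the groups. It had 27.42, 26.09 and 26.15 CPM in MPP1 and 16.38, 26.16 and 84.35 CPM in MPP3, with a log2 difference of 0.67 (SE 0.67, adjusted p = 1, edgeR quasi-likelihood F-test). The MPP1 libraries were nearly equal and the MPP3 libraries spread on both sides of them. Without MPP3 +/1013 3, the highest library, the difference was -0.32. The transcript level says nothing of the allele itself, which both groups carry.

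At an adjusted p under 0.05, 16 of the 18676 genes tested differed between MPP3 and MPP1 (0.0857%), 15 higher in MPP3 (0.0803%) and 1 lower (0.00535%). The genes that rose encode leukocyte surface proteins (Cd53, Cd52, Ly6d, Cd34, Emb), a cytokine receptor (Il1r1), a chemokine (Ccl9), a lysosomal protease (Ctss), a lipid enzyme (Lpcat2) and a few less known products. The gene that fell was Apoe, the lipid carrier apolipoprotein E. In all 16 the 3 MPP3 libraries lay beyond the 3 MPP1 libraries. Over all genes tested, 950 (5.09%) lay wholly higher in MPP3 in this sense and 935 (5.01%) wholly lower, and 602 (3.22%) and 413 (2.21%) had an unadjusted p under 0.05 in those directions. The number of calls rests on a spread estimated from all 32 libraries: with only the 12 +/1013 libraries 5 genes passed, 3 of them among the 16, and with only the 6 libraries compared none did, while DESeq2 called 388 genes (2.08%), among them 15 of the 16, and limma-voom 110 (0.589%), among them 11. Leaving out MPP1 +/1013 2 left 2 calls and leaving out MPP3 +/1013 3 left 7, and without both MPP3 +/1013 3 and MPP1 +/1013 1 there were 2, of which Cd53 is 1 of the 16.

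**Figure D1:**
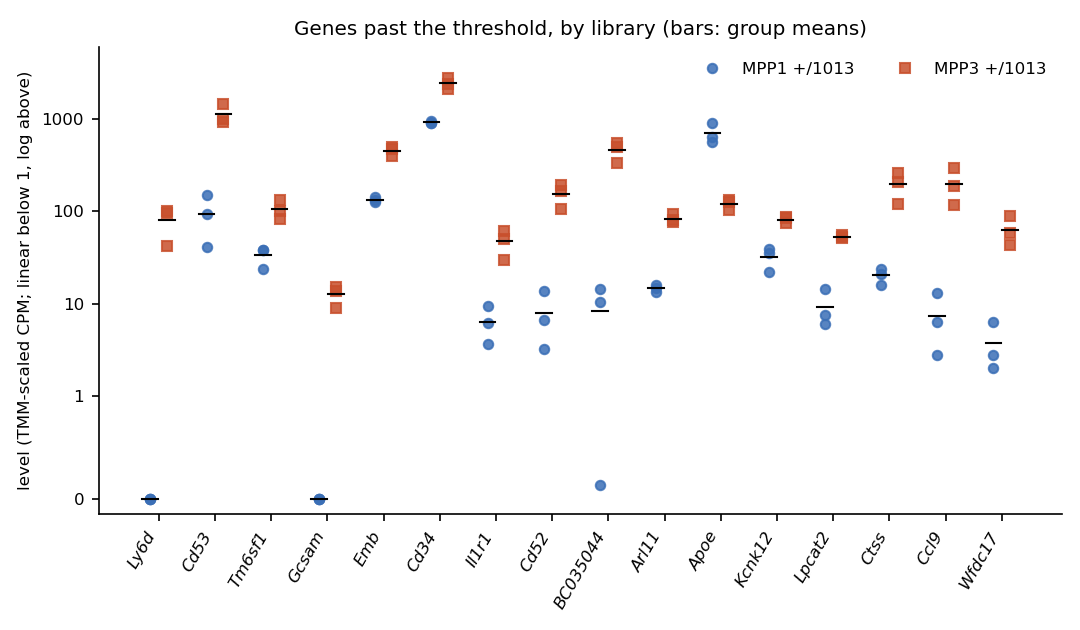
Level in each library of the 16 genes past the threshold, in TMM-scaled CPM on an axis that is linear below 1 and logarithmic above. Circles are the 3 MPP1 +/1013 libraries, squares the 3 MPP3 +/1013 libraries and bars the group means. No gene has overlapping groups, Ly6d and Gcsam are at 0 in MPP1, and Apoe is the only gene lower in MPP3.

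Cd53, a tetraspanin of leukocytes that organises receptors in the plasma membrane, had the lowest p among the genes detected in both groups. It had 150.3, 93.09 and 40.72 CPM in MPP1 and 931.3, 1000 and 1444 CPM in MPP3. The lowest MPP3 library was far above the highest MPP1 library. The means were 94.7 ± 54.8 and 1125 ± 278 CPM (SD, n = 3), and the log2 difference was 3.57 (SE 0.51, adjusted p = 0.003396). Cd52, a small glycosylated surface peptide of lymphocytes and myeloid cells, had 13.88, 6.635 and 3.24 CPM in MPP1 and 106.3, 167.2 and 190.8 CPM in MPP3 (log2 difference 4.30, SE 0.75, adjusted p = 0.01882). In both genes MPP1 +/1013 1 was the highest MPP1 library and MPP3 +/1013 3 the highest MPP3 library. Cd53 did not pass without MPP1 +/1013 2 (adjusted p = 0.050) or with only the +/1013 libraries (0.085), and passed without any other single library. Cd52 passed only without MPP1 +/1013 1 or MPP3 +/1013 1 among the single libraries left out.

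Ly6d, a surface protein whose appearance marks lymphoid-biased progenitors, had no count in any MPP1 library and 42.53, 102 and 95.88 CPM in MPP3. Against a floor of 3 counts per library this was at least 566-fold higher (adjusted p = 0.003396). Gcsam, a germinal-centre signalling adaptor of B cells, was also without counts in MPP1 and had 9.05, 13.82 and 15.04 CPM in MPP3, at least 89.3-fold higher (adjusted p = 0.004789). These were the only 2 of the 16 at 0 in a whole group. DESeq2 gave no adjusted p for Ly6d and called Gcsam. Ly6d passed without any single library of the 6, and Gcsam did so except without MPP1 +/1013 2.

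Surface proteins already abundant in MPP1 rose by smaller factors. Cd34, the sialomucin that marks progenitors, had 906.1, 902.8 and 948.9 CPM in MPP1 and 2372, 2785 and 2111 CPM in MPP3 (log2 difference 1.40, SE 0.22, adjusted p = 0.006208). It is 1 of the genes the gates may use. Emb, the immunoglobulin-family protein embigin, had 125, 133.3 and 143.6 CPM in MPP1 and 392.9, 475.1 and 495.6 CPM in MPP3 (log2 difference 1.76, SE 0.27, adjusted p = 0.004789). The MPP1 values of both genes were tightly grouped. Tm6sf1, a membrane protein of lysosomes, had 38.2, 38.22 and 23.81 CPM in MPP1 and 83.27, 101.8 and 132 CPM in MPP3 (log2 difference 1.66, SE 0.24, adjusted p = 0.003527), and Kcnk12, a potassium channel subunit, had 22.03, 39.16 and 35.4 against 86.36, 84.24 and 74.5 CPM (log2 difference 1.34, SE 0.25, adjusted p = 0.02711). Tm6sf1 passed when any single library was left out, but not without the 8 libraries of low Fos or with only the +/1013 libraries. Emb was lost without MPP1 +/1013 2, and Cd34 without MPP1 +/1013 2 or MPP3 +/1013 2. Kcnk12 had the smallest log2 difference of the 16 and did not pass when any 1 of the 6 libraries was left out.

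Il1r1, the signalling receptor for interleukin 1, had 3.64, 6.19 and 9.39 CPM in MPP1 and 50.74, 61.04 and 29.99 CPM in MPP3 (log2 difference 2.88, SE 0.49, adjusted p = 0.01618). Ctss, the cathepsin that trims the invariant chain in antigen-presenting cells, had 21.15, 23.81 and 16.1 CPM in MPP1 and 120.1, 261.7 and 208.5 CPM in MPP3 (log2 difference 3.27, SE 0.62, adjusted p = 0.02929). Ccl9, a chemokine of myeloid cells, had 13.14, 6.43 and 2.77 CPM in MPP1 and 116.2, 187.4 and 292.8 CPM in MPP3 (log2 difference 4.75, SE 0.91, adjusted p = 0.0322). For Il1r1, Ctss and Ccl9 every MPP3 library was more than 3 times the highest MPP1 library. Wfdc17, a small secreted protein of activated macrophages, lies 125.4 kb from Ccl9 on chromosome 11, and had 6.4, 2.81 and 2.04 CPM in MPP1 and 88.9, 43.13 and 58.37 CPM in MPP3 (log2 difference 4.10, SE 0.81, adjusted p = 0.04272). Of the 4 tested genes between them, the chemokine gene Ccl6 had 0, 0 and 1.03 CPM in MPP1 and 1.17, 42.29 and 154.2 CPM in MPP3 (adjusted p = 0.81). Among the fits that left out a single library, Il1r1 was lost without MPP1 +/1013 1, MPP1 +/1013 2 or MPP3 +/1013 2, Ctss and Ccl9 passed only without MPP3 +/1013 1, and Wfdc17 passed in none. Il1r1, Ccl9 and Wfdc17 did not pass in limma-voom, and Ctss, Ccl9 and Wfdc17 did not pass with a term for libraries numbered 46 and above.

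Lpcat2, an enzyme of platelet-activating factor synthesis, had 6.06, 14.37 and 7.55 CPM in MPP1 and 51.68, 52.54 and 56.04 CPM in MPP3 (log2 difference 2.52, SE 0.47, adjusted p = 0.02929). Arl11, a small GTPase of macrophages, had 13.27, 16.12 and 14.76 CPM in MPP1 and 77.28, 80.04 and 92.93 CPM in MPP3 (log2 difference 2.50, SE 0.45, adjusted p = 0.02199). The 3 MPP3 libraries were close to each other in both genes. BC035044, which has no common name in the file, had 14.35, 10.58 and 0.134 CPM in MPP1 and 336.5, 498.8 and 550.4 CPM in MPP3 (log2 difference 5.80, SE 1.03, adjusted p = 0.02071), and it is named here because its value was seen. MPP1 +/1013 3 was lowest by far within its group. Lpcat2 was lost without any 1 of the 6 libraries, in limma-voom and with the term for libraries numbered 46 and above. Arl11 passed only without MPP3 +/1013 1 among the single libraries, and BC035044 only without MPP3 +/1013 1 or MPP1 +/1013 3, with its call also lost in limma-voom.

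Apoe was the only gene that fell. It had 556.2, 634.1 and 912.2 CPM in MPP1 and 126.2, 132.5 and 104.2 CPM in MPP3, with means of 700.8 ± 187 and 121 ± 14.8 CPM (SD, n = 3). The highest MPP3 library lay far below the lowest MPP1 library. The log2 difference was -2.53 (SE 0.47, adjusted p = 0.02552). The call was lost without any 1 of 5 of the 6 libraries (adjusted p up to 0.2016 over all settings), while the log2 difference stayed between -2.68 and -2.30.

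**Figure D2:**
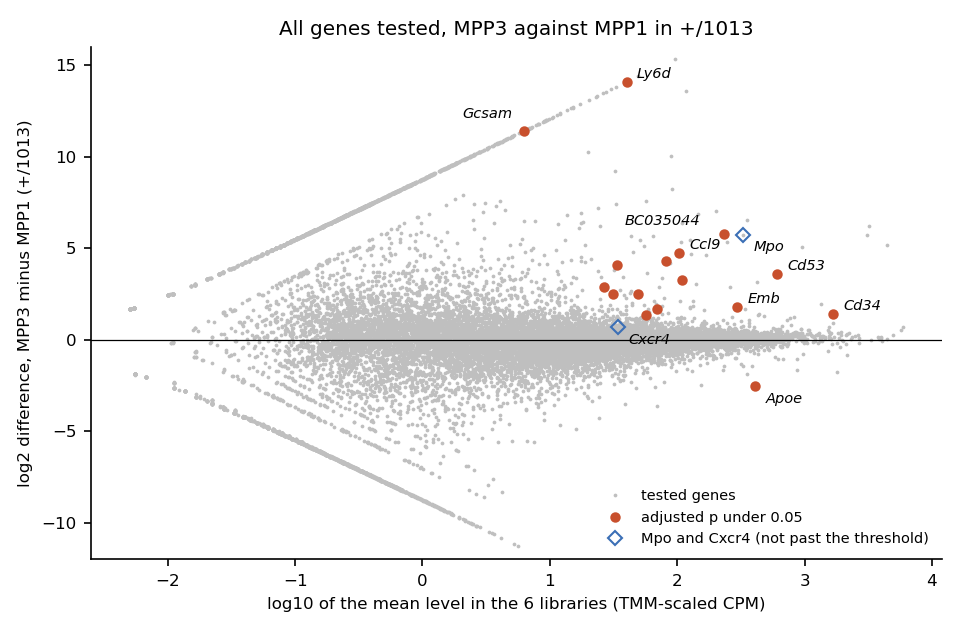
Log2 difference of MPP3 minus MPP1 in +/1013 against the log10 of the mean level in the 6 libraries, in TMM-scaled CPM, for the genes tested. Filled circles are the 16 genes past the threshold, open diamonds Mpo and Cxcr4. The straight lines of points at the upper and lower edge are genes at 0 in all libraries of MPP1 or of MPP3, and Mpo has a log2 difference of 5.74 without passing.

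The stretch before the start site is shown for Cd53, Ctss and Apoe, a surface protein and a protease that rose and the gene that fell. The sequences are the 250 bases upstream of the RefSeq start on GRCm38.p6, written 5′ to 3′ on the gene's strand, and capitals mark GAGGAA or its reverse complement, the core of the sites bound by the myeloid and B-cell factor PU.1. The coordinates are chr3:106790150-106790399, minus strand for Cd53, chr3:95526536-95526785, plus strand for Ctss and chr7:19699189-19699438, minus strand for Apoe.
Cd53: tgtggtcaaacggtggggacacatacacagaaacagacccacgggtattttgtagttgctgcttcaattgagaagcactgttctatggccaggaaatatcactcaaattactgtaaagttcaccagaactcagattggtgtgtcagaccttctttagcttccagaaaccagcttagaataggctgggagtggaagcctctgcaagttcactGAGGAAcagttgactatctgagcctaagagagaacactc
Ctss: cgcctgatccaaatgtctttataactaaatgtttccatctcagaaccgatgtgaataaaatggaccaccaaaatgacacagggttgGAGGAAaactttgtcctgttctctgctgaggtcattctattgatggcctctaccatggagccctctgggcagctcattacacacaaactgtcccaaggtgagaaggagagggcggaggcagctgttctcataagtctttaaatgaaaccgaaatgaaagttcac
Apoe: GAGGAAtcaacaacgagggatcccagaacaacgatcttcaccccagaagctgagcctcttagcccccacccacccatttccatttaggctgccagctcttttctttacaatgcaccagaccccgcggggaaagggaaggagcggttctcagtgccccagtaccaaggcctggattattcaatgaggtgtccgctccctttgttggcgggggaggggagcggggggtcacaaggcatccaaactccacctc
The table of promoters held 13 of the 16 genes, with Ly6d, Cd52 and Tm6sf1 not among them. Both strands were searched for 3 motifs, and a gene could hold more than 1. GAGGAA was in 7 of the 13 (53.8%), and in 23.3% of all 32851 promoters of that length. TTNNGNAA, the C/EBP motif, was in 8 (61.5%), against 36.8% of all promoters. AGATAA, the GATA motif, was in 2 (15.4%), against 9.99%. These are matches of letters and not sites shown to be bound. For a called gene 1 start was taken, the nearest to its deposited 5′ end, while the 32851 were all starts held, whether or not the gene was tested. For Emb that start lay 12037 bases from the deposited end. In Cd53 the GAGGAA begins 39 bases before the start. Cd53, Ctss and Apoe, shown above, all hold GAGGAA, while Emb, Cd34, Il1r1, Arl11, Lpcat2 and Ccl9 do not.

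Myeloid receptor, surface and granule genes were mostly higher in MPP3 than in MPP1, while the myeloid transcription factors were divided. Of the 3 myeloid lists the receptors and surface proteins held all of the calls. Of 36 tested genes of myeloid receptors and surface proteins, 31 had a positive log2 difference. In this list 5 rose (Cd53, Cd52, Cd34, Emb and Ccl9), against 0.0803% of all genes tested. An unadjusted p under 0.05 was found for 17, all of them higher (3.22% of all genes tested). The median log2 difference was 1.88, against 0 over all genes tested. It was 1.72 without MPP3 +/1013 3, where 3 of its genes passed, against 7 of all 18583 genes tested there. Without both MPP3 +/1013 3 and MPP1 +/1013 1, 1 passed, against 2 of all 18520. Set against MPP4 +/1013, the median of this list in MPP3 was -0.43. The primary granule genes, which encode the proteases and peroxidase of immature granulocytes, were positive in 18 of 19 with a median of 1.66. None passed, 8 were higher at an unadjusted p under 0.05 (3.22% of all genes tested), and 8 lay wholly higher in MPP3 (5.09%). DESeq2 called 4 of them higher and limma-voom none, against 274 and 71 of all 18676 genes tested.

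Mpo, myeloperoxidase, had 4.18, 4.76 and 27.25 CPM in MPP1 and 148.9, 860.9 and 937.8 CPM in MPP3. The groups did not overlap, but the MPP3 libraries differed among themselves, with replicate 1 lowest. The log2 difference was 5.74 (SE 1.48, adjusted p = 0.31 in edgeR and 2.8e-05 in DESeq2). Ctsg (cathepsin G) had 0, 0.529 and 8.28 CPM in MPP1 and 48.52, 202.3 and 957.5 CPM in MPP3, and Elane (neutrophil elastase) had 0, 0.855 and 34.1 CPM against 5.99, 120.1 and 1314 CPM. Elane overlapped, since MPP3 replicate 1 lay below MPP1 replicate 3. Prtn3 (proteinase 3) was detected throughout, with 178.3, 142.8 and 170.4 CPM in MPP1 and 396.5, 320.8 and 831.6 CPM in MPP3 (log2 difference 1.66, SE 0.66, adjusted p = 0.81). For Mpo, Ctsg, Elane and Prtn3 the highest library was MPP3 +/1013 3. That library also held the neutrophil markers, and their part in these values was not tested. Without it the median of the primary granule list was 1.27, with 16 of 19 positive.

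The transcription factors of the myeloid lineage had a median log2 difference of 0.36, with 12 of 22 positive. Without MPP3 +/1013 3 the median was 0.016, with 11 of 22 positive. Spi1, which encodes PU.1, had 57.26, 104.6 and 127.3 CPM in MPP1 and 128.7, 175.9 and 149.5 CPM in MPP3 (log2 difference 0.65, SE 0.24, adjusted p = 0.81). The lowest MPP3 library was just above the highest MPP1 library. Irf8, the factor of monocytes and dendritic cells, had 0.943, 11.23 and 6.48 CPM against 33.25, 56.68 and 114.8 CPM (log2 difference 3.44, SE 1.21, adjusted p = 0.81). Cebpa, the factor of early granulocyte commitment, had 3.91, 1.63 and 0.601 CPM against 7.52, 17.79 and 12.29 CPM (log2 difference 2.62, SE 0.99, adjusted p = 0.81). None of the 22 passed and 5 were higher at an unadjusted p under 0.05 (3.22% of all genes tested). Among cytokine receptors, Csf1r was at 0 in MPP1 and at 0, 5.66 and 3.42 CPM in MPP3, while Csf2ra and Csf3r overlapped (log2 differences -0.33 and 0.74, adjusted p = 1 for both).

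Lymphoid priming genes were mostly higher in MPP3 than in MPP1 as well. Of 40 tested, 33 were positive with a median log2 difference of 1.25. Ly6d and Wfdc17 rose, and Wfdc17 is also a macrophage product, as given above. At an unadjusted p under 0.05, 20 were higher (3.22% of all genes tested), and 20 lay wholly higher (5.09%). Without MPP3 +/1013 3 the median was 1.55 and 1 gene passed, against 7 of all 18583 genes tested there. Set against MPP4 +/1013, the gate that leans to lymphoid cells, the list's median in MPP3 was -0.60. Dntt, the template-independent DNA polymerase of antigen-receptor assembly, had 16.03, 0 and 0 CPM in MPP1 and 172.5, 220.4 and 229.9 CPM in MPP3 (log2 difference 5.32, SE 2.10, adjusted p = 0.81). Rag2, a subunit of the recombinase, had 0.067, 0 and 0.033 CPM against 1.69, 3.81 and 13.07 CPM (log2 difference 7.49, SE 1.75, adjusted p = 0.23 in edgeR and 0.00025 in DESeq2). Its partner Rag1 had no count in any of the 6 libraries, and Il7r, the receptor of early lymphocytes, had none in MPP1 and 0, 1.06 and 7.26 CPM in MPP3. The lymphoid transcription factors had a median of 0.11, with 13 of 23 positive and none passing, which turned to -0.10 without MPP3 +/1013 3 and to -0.14 without MPP1 +/1013 1.

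**Figure D3:**
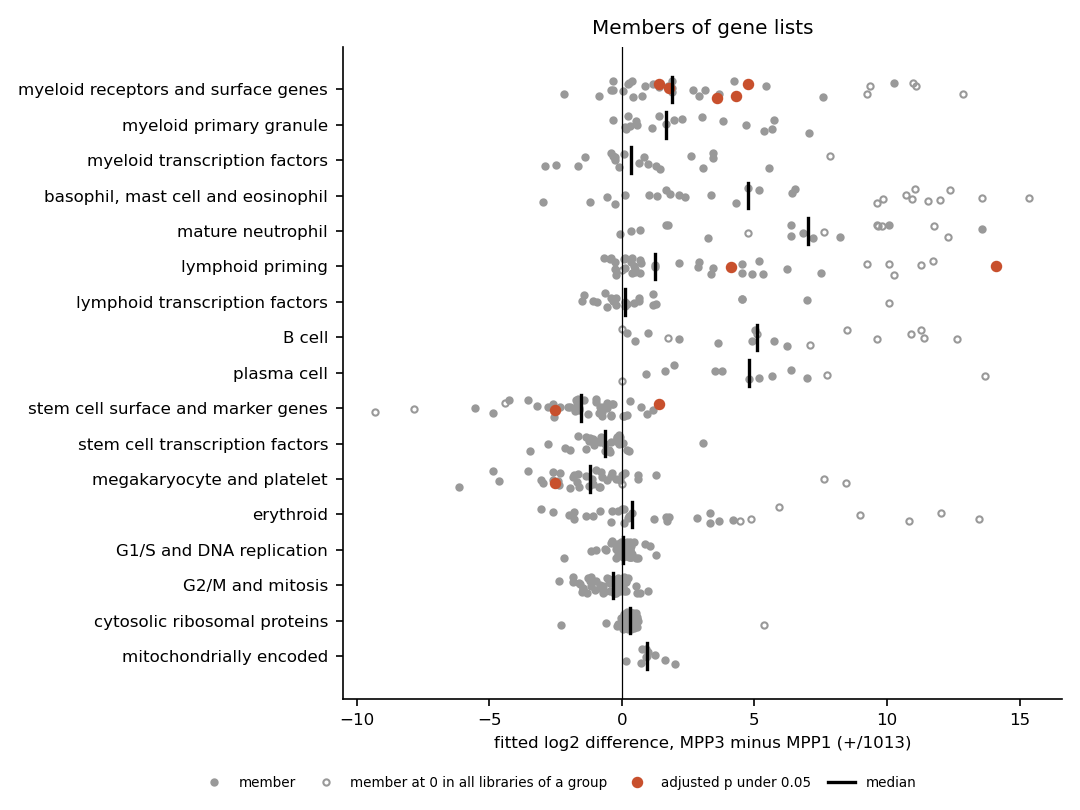
Fitted log2 difference of MPP3 minus MPP1 in +/1013 for each tested member of 17 gene lists. Filled grey points are members, open points members at 0 in all libraries of a group, large points members past the threshold and vertical bars the medians. The myeloid surface and lymphoid priming lists lie to the right, the stem cell and megakaryocyte lists to the left, and open points at the far right depend on the prior count of the fit.

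Transcripts that mark antibody-making cells were abundant in the MPP3 libraries. Igkc, the kappa light-chain constant region, had 343, 0.163 and 0.1 CPM in MPP1 and 2672, 11420 and 4121 CPM in MPP3 (log2 difference 5.73, SE 2.16, adjusted p = 0.81). Jchain, which links secreted antibodies, had 722.8, 0.081 and 0.434 CPM against 3157, 15530 and 7326 CPM, and Mzb1, a chaperone of antibody secretion, had 6.94, 0.285 and 0.434 CPM against 63.79, 177 and 136 CPM (adjusted p = 0.10). For Igkc, Jchain and Mzb1, MPP1 replicate 1 was far above the other MPP1 libraries and MPP3 replicate 2 was highest. Of 13 plasma cell genes tested, 12 were positive, none passed and 8 were higher at an unadjusted p under 0.05 (3.22% of all genes tested). The list's median log2 difference was 4.79, or 3.78 with genes at 0 in a group set at their bound. Of 19 B cell genes, 18 were positive and 11 were higher at an unadjusted p under 0.05 (also against 3.22%). Their median was 5.09, or 3.64 at the bound. Without MPP3 +/1013 3 the B cell median was 3.08, with 13 of 19 positive, and without both libraries it was 2.51. The summed level of 5 B cell markers was 0.1 to 344 CPM in MPP1 and 2705 to 11460 CPM in MPP3, and Pax5, which defines the B lineage, was at 0 in all 6. In wild type the same sum was 0.149 to 1.89 CPM in MPP1 and 315.5 to 3783 CPM in MPP3. Whether mature B or plasma cells were in the pools was not tested. Nor was the part of such cells in Cd52, Cd53 and the other genes that lymphocytes also express.

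Transcripts that mark other mature cells were high in some libraries only, and whether mature cells or the progenitors held them was not tested. The basophil, mast cell and eosinophil list was positive in 23 of 27 with a median of 4.77, none passing. Mcpt8, a basophil protease, was at 0 in MPP1 and had 0.554, 119.3 and 46.94 CPM in MPP3, and Prss34, another, was at 0 in MPP1 and had 0, 337.4 and 244.6 CPM. Replicates 2 and 3 carried them, in MPP2 and MPP4 +/1013 as well. Mcpt8 had 0.953, 82.59 and 40.75 CPM in MPP2 +/1013 and 6.058, 181 and 59.64 CPM in MPP4 +/1013. Prss34 had 0, 284.6 and 364.2 CPM in MPP2 +/1013 and 0, 613.9 and 412.4 CPM in MPP4 +/1013. Without MPP3 +/1013 3 the list's median was 1.85, and without MPP1 +/1013 1 it was 9.16. The mature neutrophil list had a median of 7.03, or 4.78 at the bound, and 0.22 without MPP3 +/1013 3, where S100a8 had 637.9 CPM against 2.67 and 0.726 in the other MPP3 libraries. The chemokine and migration receptor list was positive in 29 of 32 with a median of 2.69, which was 0.89 without that library, and Ccl9 alone rose, which did not pass without it. The monocyte and macrophage list had a median of 3.42, or 2.60 at the bound and 1.54 without that library.

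Genes of the stem cell surface were mostly lower in MPP3. Of 46 tested, 38 were negative with a median log2 difference of -1.53, Apoe fell and Cd34 rose. At an unadjusted p under 0.05, 12 were lower (2.21% of all genes tested), and 18 lay wholly lower in MPP3 (5.01%). Without MPP3 +/1013 3 the 12 became 5, against 189 of all 18583 genes tested there, and Apoe did not pass. Without both libraries they became 6, against 203 of all 18520. Esam, an endothelial adhesion protein of stem cells, had 269.1, 340.7 and 441.8 CPM in MPP1 and 161.6, 113.6 and 57.02 CPM in MPP3 (log2 difference -1.66, SE 0.62, adjusted p = 0.81). Procr, the protein C receptor, overlapped, with 91.89, 132.9 and 149.9 CPM against 121.5, 59.26 and 27.07 CPM. Among the stem cell transcription factors 31 of 35 were negative, with a median of -0.65 and none passing. In this list 4 were lower at an unadjusted p under 0.05 (2.21% of all genes tested). The 4 became 1 without MPP3 +/1013 3 (against 189 of all 18583 genes), and the median became -1.03 without MPP1 +/1013 1. Mecom, a factor of stem cell maintenance, had 10.51, 40.74 and 43.92 CPM in MPP1 and 9.35, 21.96 and 5.68 CPM in MPP3 and overlapped. In Mecom and Vwf the lowest MPP1 library was replicate 1.

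Megakaryocyte and platelet genes were lower too. Of 40 tested, 33 were negative with a median log2 difference of -1.20, and 1 fell (Apoe, which is also in the stem cell surface list). At an unadjusted p under 0.05, 13 were lower (2.21% of all genes tested), and 18 lay wholly lower (5.01%). Gp9, a subunit of the platelet receptor for von Willebrand factor, had 69.66, 71.15 and 78.99 CPM in MPP1 and 27.45, 19.93 and 14.75 CPM in MPP3 (log2 difference -1.82, SE 0.57, adjusted p = 0.67 in edgeR, 0.029 in DESeq2 and 0.012 in limma-voom). Pf4, the platelet chemokine, had 133.9, 51.78 and 67.1 CPM against 14.43, 6.99 and 48.68 CPM (log2 difference -1.85, SE 0.82, adjusted p = 0.81), and the groups came close at MPP3 +/1013 3. Gata1, the factor of megakaryocytes and erythroid cells, had 147.1, 77.38 and 120.2 CPM against 0, 19.21 and 36.95 CPM (log2 difference -2.62, SE 1.56, adjusted p = 0.81). The erythroid list had a median of 0.37, which was -0.06 without MPP3 +/1013 3, the library with most hemoglobin, and Klf1 went from 1.79 to -0.17.

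The study's title names mTOR and mitochondrial metabolism, and the lists for them had few differences of low p between MPP3 and MPP1 in +/1013. No gene of the mTOR, glycolysis, tricarboxylic acid cycle or respiratory complex lists passed. Their median log2 differences were -0.01 for 47 mTOR pathway components, -0.01 for 25 glycolysis genes, 0.10 for 25 genes of the tricarboxylic acid cycle, 0.12 for 36 nuclear genes of complex I and 0.15 for 40 of complexes II to V. The complex I median was -0.06 without MPP3 +/1013 3, with 11 of 36 positive, and 0.43 without MPP1 +/1013 1. That of complexes II to V was 0.04 and 0.58 in these settings. In the second, 10 of the 40 were higher at an unadjusted p under 0.05, against 618 of all 18646 genes tested there. Glycolysis had 0.02 and -0.19, the tricarboxylic acid cycle 0.0051 and 0.14. The 10 mitochondrially encoded genes tested were all positive with a median of 0.93, which was 0.29 without MPP3 +/1013 3, and none passed or had an unadjusted p under 0.05. Of 83 cytosolic ribosomal protein genes 77 were positive, with a median of 0.31, which was 0.10 without that library and 0.64 without MPP1 +/1013 1, with 81 positive. Of 60 genes of G2/M and mitosis 46 were negative with a median of -0.35, or -0.21 without MPP1 +/1013 1, and of 55 genes of G1/S and DNA replication 32 were positive with a median of 0.05. In each of these groups no gene passed.

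The same comparison in wild type shares no library with that in +/1013, and it had calls in the same direction. Both use a spread per gene estimated from all 32 libraries, so their calls are not independent. MPP3 wild type 3, with 96.68 CPM of Fos, is like MPP3 +/1013 3 among the 8 libraries of low Fos, and no MPP1 library is. MPP1 replicate 3 has library number 46 in wild type and 47 in +/1013. The part of these likenesses in the shared calls was not tested. In wild type 19 genes passed (0.102%), 18 higher (0.0964%) and 1 lower (0.00535%) in MPP3. All 19 had the same sign in +/1013 and did not overlap there. Of all genes tested, 47.3% were positive in +/1013, 5.09% lay wholly higher in MPP3 and 5.01% wholly lower. Of the 19, 10 also passed, which is 52.6% of the wild-type calls and 62.5% of the +/1013 calls (background of calls in +/1013, 0.0857%). The 10 were Ly6d, Cd53, Tm6sf1, Emb, Cd34, Cd52, BC035044, Arl11, Ccl9 and Wfdc17. Cd53 had a log2 difference of 3.76 in wild type and 3.57 in +/1013, and Ccl9 of 4.94 and 4.75. The median over the 19 was 3.42 in wild type and 2.50 in +/1013, and the wild-type values chose these genes. Of the 6 genes past the threshold in +/1013 alone, Apoe had a wild-type log2 difference of -2.26 (adjusted p = 0.053), Kcnk12 1.21 (0.053), Lpcat2 2.04 (0.11), Il1r1 2.08 (0.11), Ctss 2.48 (0.15) and Gcsam 4.00 (0.23).

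Some of the genes past the threshold in wild type alone are named because of those values. Fut7, a fucosyltransferase of leukocytes, had 98.62, 81.77 and 54.14 CPM in MPP1 +/1013 and 244.3, 257.6 and 231.3 CPM in MPP3 +/1013 (log2 difference 1.64, adjusted p = 0.059, against 2.45 in wild type). P2ry14, a receptor for UDP-sugars, had 83.4, 60.28 and 31.66 CPM against 210.1, 164.5 and 202.9 CPM (1.72, adjusted p = 0.055, against 2.01). For Fut7 and P2ry14, MPP1 replicate 1 was the highest MPP1 library. Clec4e, a receptor for mycobacterial glycolipid, had a log2 difference of 2.10 in +/1013 and 3.82 in wild type, and in +/1013 MPP1 replicate 1 was highest, at 100.6 CPM against 37.61 and 11.72.

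**Figure D4:**
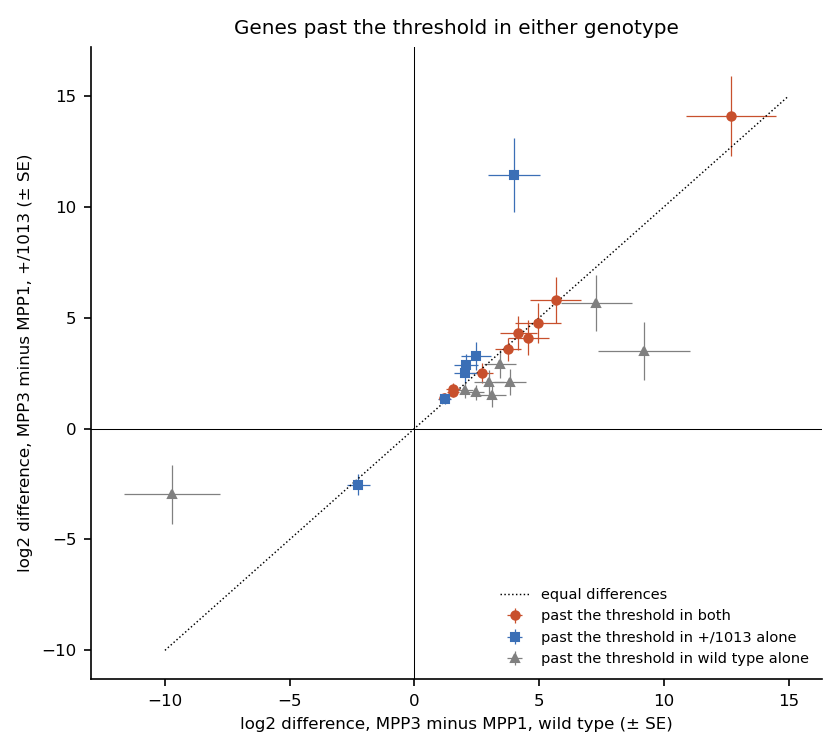
Log2 difference of MPP3 minus MPP1 in wild type (horizontal) and in +/1013 (vertical), each with its SE, for the 25 genes past the threshold in either genotype. Circles passed in both, squares in +/1013 alone and triangles in wild type alone, and the dotted line marks equal differences. All 25 lie on the same side of 0 in both genotypes.

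The difference between the genotypes was tested directly and no gene passed. For +/1013 minus wild type 0 of 18676 genes had an adjusted p under 0.05 in edgeR, with 621 (3.33%) at an unadjusted p under 0.05, 186 calls (0.996%) in DESeq2 and 2 (0.0107%) in limma-voom. Gcsam was among the genes of lowest p (log2 difference of the differences 7.43, SE 1.89, adjusted p = 1): wild-type MPP1 had 1.89, 0.595 and 0 CPM where +/1013 MPP1 had none. Tcf7, the T-cell factor TCF-1, was another. It had no count in MPP1 +/1013 and 6.42, 6.17 and 2.30 CPM in MPP3 +/1013, while wild type had 2.9, 0.297 and 0.153 CPM in MPP1 and 0, 0.152 and 0 CPM in MPP3 (adjusted p = 1). Tctn1 and Dmc1 were also among them. Between 1013/1013 (2 libraries a group) and +/1013 no gene passed either, with 688 (3.68%) at an unadjusted p under 0.05, 190 calls (1.02%) in DESeq2 and 14 (0.075%) in limma-voom. The lowest p were those of Zc3h7a, Ssc4d, Mzb1, Cln8 and Zmynd19. In 1013/1013 itself 2 genes (0.0107%) passed for MPP3 against MPP1, Ly6d and Mzb1, both higher in MPP3, and Ly6d passed in +/1013 too.

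Across 8331 genes with a mean of at least 10 CPM, the MPP3 to MPP1 differences in +/1013 and in wild type had a Pearson correlation of 0.754 and a Spearman correlation of 0.565, and those in +/1013 and 1013/1013 of 0.712 and 0.54. These are descriptions across genes, which are not independent replicates.

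Set against the other gates of +/1013, MPP3 differed from MPP2 in 6 genes (0.0321%), 4 higher (0.0214%) and 2 lower (0.0107%), and from MPP4 in 3 (0.0161%), 2 higher (0.0107%) and 1 lower (0.00535%). These comparisons use the same MPP3 libraries as the one with MPP1. Against MPP2, Tm6sf1 (log2 difference 1.59), Emb (1.76), Kcnk12 (1.54) and Cd34 (1.36) rose, and Apoe (-3.20) and Unc119, a lipid-binding chaperone (-1.46), fell, all with an adjusted p of 0.0059 or 0.0096. Apoe had 769.5, 1654 and 918.4 CPM in MPP2, 126.2, 132.5 and 104.2 CPM in MPP3 and 22.03, 24.14 and 44.51 CPM in MPP4, a stepwise order with no overlap between neighbours. Cd53 had 123.3, 161.7 and 391.9 CPM in MPP2 and 2985, 1626 and 1655 CPM in MPP4, and its differences of MPP3 from MPP2 (2.32, adjusted p = 0.10) and from MPP4 (-0.89, adjusted p = 1) did not pass. Ly6d had 23.86, 12.51 and 43.62 CPM in MPP2 and 484.3, 44.08 and 48.93 CPM in MPP4, so that MPP1 was the gate without it. Gcsam, Emb, Il1r1, Lpcat2, BC035044, Arl11 and Wfdc17 were, like Cd53, higher in every MPP4 library than in any MPP3 library. Wfdc17 had 548.2, 280.9 and 266.4 CPM in MPP4, and Gcsam 46.52, 65.56 and 32.16 CPM. For Ly6d, Tm6sf1, Cd34, Cd52, Kcnk12, Ctss and Ccl9 the MPP3 and MPP4 libraries overlapped. Against MPP4, Sdsl, a serine dehydratase-like enzyme, rose (2.68, adjusted p = 0.039) and Il12a, an interleukin 12 subunit, fell (-2.50, adjusted p = 0.039), while the third gene has no common symbol in the file. DESeq2 called 322 genes (1.72%) against MPP2 and 184 (0.985%) against MPP4, and limma-voom 76 (0.407%) and 93 (0.498%). Without both doubted libraries neither comparison had a call.

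**Figure D5:**
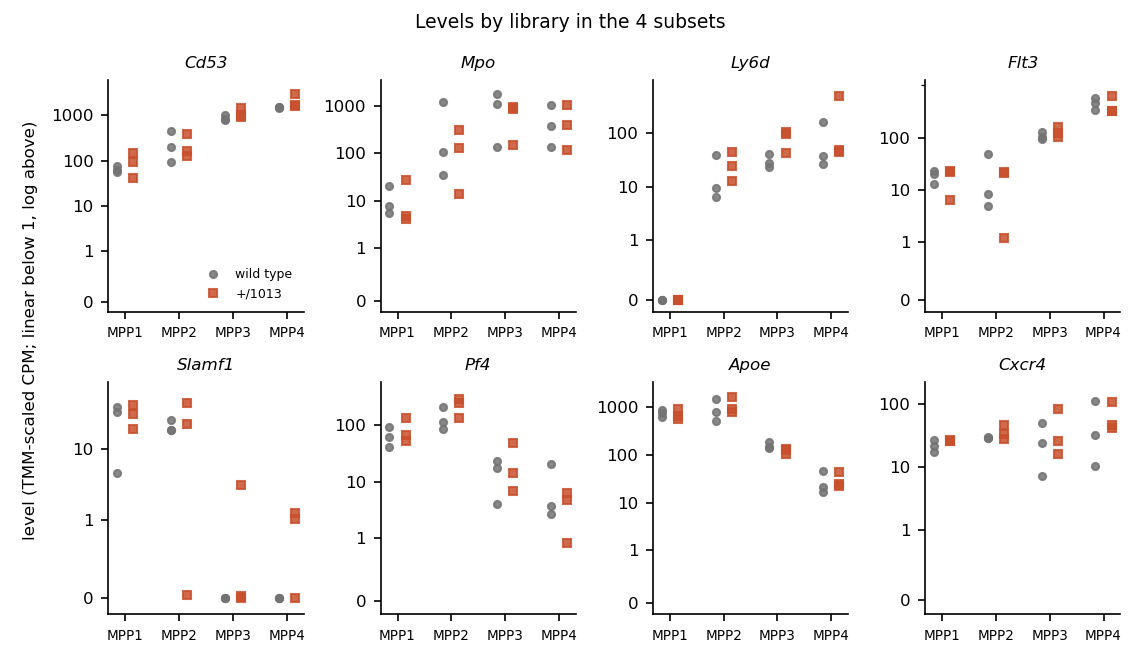
Level by library of 8 genes in MPP1, MPP2, MPP3 and MPP4, for wild type (circles, n = 3 per gate) and +/1013 (squares, n = 3 per gate), in TMM-scaled CPM on an axis that is linear below 1 and logarithmic above. In +/1013, Cd53 and Flt3 are highest and Apoe is lowest in MPP4, Ly6d is at 0 in MPP1 alone, and Cxcr4 overlaps between gates.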

How the data were processed

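RNA was measured in sorted progenitor pools, 32 libraries in 12 groups of 2 or 3. The authors deposited counts per Ensembl gene for 30644 genes, and the file headers call these columns raw. Per the submitters' processing notes, STAR, HTSeq and mm10 were used. Versions and the strand setting are not given in the sources used here, so overlapping genes on opposite strands cannot be told apart. The deposited table also gives, per the file headers, chromosome, start, end and median transcript length in bases, an other kind of value that entered no test. Another 64 per-sample columns of normalized values were not used.

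Counts were fitted in edgeR 4.0.16 (R 4.3.3) with 1 coefficient per group over all 32 libraries. filterByExpr left 18676 genes, and 3883 had no count in any library. Libraries were scaled by TMM and the trended dispersion was used (median 1.23). The quasi-likelihood F-test (glmQLFit, glmQLFTest) had 20 residual degrees of freedom and 3.24 prior ones. Benjamini-Hochberg adjustment ran over all genes tested in a comparison, and 0.05 was the threshold. An SE is the size of a log2 difference over the root of its F. An adjusted p with no tool named comes from this test. Levels are TMM-scaled CPM. Genes at 0 in a whole group were set against a floor of 3 counts per library, which covers counting error only, as the reads carry no molecular identifiers. The fit was tested on simulated data.

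Genes named are Cxcr4, the 15 largest rises and falls past the threshold without overlap, a mean of at least 1 CPM and a symbol that is no predicted model, up to 6 passing and the first 5 members of each list, the markers and the 5 of lowest p in the other comparisons. Others are marked, and some genes that the rule names are not reported here. The members, the gene lists and the tests were chosen with earlier results of these data known. Alternatives were DESeq2 1.42.0, limma-voom (limma 3.58.1), other scaling, filters and sample sets, terms for libraries that stand apart, and leaving out each library. Promoters are from the RefSeq table of GRCm38.p6.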

Additional observations from a re-analysis of the deposited data

How the results depend on the processing

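The 16 genes kept their sign in all 20 alternatives. As their groups did not overlap, leaving out libraries could hardly turn a sign, so this says little of how firm the calls are. The count of 16 became 388 with DESeq2, 110 with limma-voom, 38 with the newer quasi-likelihood method of edgeR (legacy = FALSE), 5 with only the +/1013 libraries (3 of the 16) and 0 with only the groups compared. It was 2 without both MPP1 +/1013 1 and MPP3 +/1013 3, with 1 of the 16 among them, and 2 to 15 without 1 library, lowest without MPP1 +/1013 2. The 15, without MPP1 +/1013 1, held 8 of the 16. It was 7 without MPP3 +/1013 3, 5 without MPP3 +/1013 2 and 10 without MPP1 +/1013 3. Without the 8 libraries of low Fos it was 19, with 11 of the 16 among them. Tm6sf1, BC035044, Arl11, Kcnk12 and Lpcat2 did not pass there. Other scaling, filters and terms for libraries gave 11 to 20. The fit with legacy = FALSE and that without both libraries were chosen after seeing the data, and the planned legacy fit is the default here and equals the main one. The cause of these shifts was not tested, apart from the fewer libraries in some.

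Over all genes, same-numbered libraries of the groups compared did not deviate together (correlations 0.017, 0.079 and -0.089). With 3 libraries a group such correlations cannot settle whether equal numbers share mice, and the main fit does not pair them. In wild type, Ddx3y went with the number, at 49.16, 46.25, 58.1 and 83.35 CPM in replicate 1 of MPP1 to MPP4 and 0 in replicate 2 of each. In +/1013 it was 42.55 CPM in replicate 3 of MPP1 and 0 in that of MPP3. With the replicate number as a block there were 26 calls, among them all 16, and Mpo, Ctsg and P2ry14 also passed (adjusted p = 0.032 each, edgeR).

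For +/1013 minus wild type the count of 0 was 186 with DESeq2 and 2 with limma-voom, and 0 to 1 without 1 library (1 without MPP3 wild type 1). For 1013/1013 minus +/1013 it was 190 and 14, and 0 to 11 (11 without MPP3 1013/1013 1, where the lone sample is assumed to vary like the other groups). For MPP3 against MPP2 the count of 6 was 10 with RLE, 322 with DESeq2, 76 with limma-voom, 30 with legacy = FALSE, 0 with only the groups compared or without both libraries, and 2 to 11 without 1 library. For MPP3 against MPP4 the count of 3 was 184 with DESeq2, 93 with limma-voom, 31 with legacy = FALSE, 5 with a term for the 8 libraries, 0 with a term for libraries numbered 46 and above, with only the +/1013 libraries, with only the groups compared or without both libraries, and 0 to 3 without 1 library.

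Of the named genes, the log2 difference of Cxcr4 ran from -0.32 (without MPP3 +/1013 3) to 1.06 without 1 library, that of Klf1 from -0.17 to 2.25 and that of S100a8 from -0.60 to 7.04. Cxcr4 turned to -0.32 without the 8 libraries and -0.30 without both libraries. Klf1 turned to -0.17 and -0.54, and to -0.024 with a term for the 8 libraries. S100a8 turned to -0.58 and -0.71, and to -0.35 with that term.

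At the lowest total, 3 counts are 0.202 CPM. No fit on thinned counts was run.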
